A study of Mus musculus with 12 samples.

Results

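A set of 7 genes was described across the arteries of wild type mice and mice labelled as a fibulin-5 knockout, its members having been chosen by their values on these same arrays, higher or lower after ligation in wild type and little different in the knockout. They are Sardh, Gstt1, Anapc4 and Mbd2, whose values were higher in the ligated wild type artery, and Pak4, Atp8b1 and Rtl8a, whose values were lower. The 7 symbols had 11 of the 45281 probes of the array, and all 7 genes were among the 15395 genes that passed a filter on dim probes. The ligation differences within each genotype chose these genes, so they are given here as a description, with no test, and so is the difference between them.

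Mouse carotid RNA was measured on 12 one-colour Illumina arrays, 3 in each of 4 groups. The groups were the untouched right common carotid (RCA) and the partially ligated left common carotid (LCA) of wild type mice (WT), and the same arteries of mice labelled FibVKO (KO), all labelled C57Bl/6J. Partial ligation disturbs flow in the LCA, and arteries were taken 1 day later. Every mouse of the design was ligated, so each RCA comes from an operated animal and no artery from an unoperated mouse was included. The labels give neither age, sex nor the way Fbln5 was inactivated, and the design text speaks of both knockdown and KO. Whether the replicates of a group were different animals is not stated either, and p-values cover the spread among these arrays alone. The descriptions join each number to L or R, which could name the mouse and side, but they do not say so.

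As background, disturbed flow alters gene expression in the endothelium that lines the artery, and fibulin-5 is secreted into the matrix, where elastic fibres depend on it. The 7 genes belong to no common pathway. Sardh encodes the mitochondrial enzyme that turns sarcosine into glycine, and Gstt1 a theta class glutathione S-transferase, which joins glutathione to reactive compounds. Anapc4 encodes a scaffold subunit of the anaphase-promoting complex, the ubiquitin ligase that drives cells out of mitosis. Mbd2 binds methylated CpG sites and brings the NuRD repressor complex to them. Pak4 is a kinase that acts downstream of the GTPase Cdc42 on the actin cytoskeleton. Atp8b1 is a P4-ATPase that flips phospholipids from the outer to the inner leaflet of a membrane. Rtl8a is an X-linked gene derived from a retrotransposon Gag sequence.

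The promoter sequences of 3 of the genes are shown because Sardh and Anapc4 had closely matching values over the arrays and Pak4 is one of the genes whose untouched wild type artery stood apart. They are the 250 bases before the RefSeq start on GRCm38.p6, in the direction of transcription. Capitals mark CACCC, the core letters bound by Krüppel-like factors, or its reverse complement GGGTG. The Sardh window lies at chr2:27247304-27247553 on the minus strand, the Anapc4 window at chr5:52833885-52834134 on the plus strand and the Pak4 window at chr7:28598185-28598434 on the minus strand.
Sardh: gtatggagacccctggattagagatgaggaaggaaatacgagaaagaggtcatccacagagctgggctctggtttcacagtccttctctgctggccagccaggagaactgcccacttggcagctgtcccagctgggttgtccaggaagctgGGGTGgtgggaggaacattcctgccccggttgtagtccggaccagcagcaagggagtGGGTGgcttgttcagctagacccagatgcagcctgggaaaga
Anapc4: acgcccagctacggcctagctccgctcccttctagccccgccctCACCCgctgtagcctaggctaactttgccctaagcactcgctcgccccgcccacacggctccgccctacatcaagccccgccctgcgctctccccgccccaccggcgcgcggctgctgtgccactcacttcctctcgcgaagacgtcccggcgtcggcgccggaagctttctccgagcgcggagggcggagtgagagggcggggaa
Pak4: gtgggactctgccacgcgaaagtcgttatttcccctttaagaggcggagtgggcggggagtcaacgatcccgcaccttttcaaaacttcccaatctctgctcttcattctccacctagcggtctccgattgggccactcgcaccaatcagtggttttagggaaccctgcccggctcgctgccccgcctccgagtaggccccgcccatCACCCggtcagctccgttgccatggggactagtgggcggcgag

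CACCC was found at 2 positions in the Sardh window, both as GGGTG, and at 1 position each in those of Anapc4 and Pak4. The windows of Gstt1 and Rtl8a did not hold it. On either strand it was present in 52.0% of the 32851 promoter windows in the RefSeq table, so its presence is common. The antioxidant response element core TGACNNNGC was searched on both strands too and was present in 10.2% of all windows. The AP-1 motif TGANTCA was present in 6.75%. The E-box CACGTG was present in 6.02%. The CCAAT box motif AGCCAAT was present in 7.25%. None of the 5 windows of these members held any of the last 4 motifs. The windows of Mbd2 and Atp8b1 were not searched. No matches overlapped.

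The 1 probe of Fbln5, the targeted gene, lay between 80.6 and 97.4 intensity units on the 12 arrays and above background on none, so it could not check the genotype labels. Signal over background was low and uneven between arrays. As a guide to background, the 95th percentile of the 1504 olfactory and vomeronasal receptor probes, called the receptor level here, lay between 95.7 and 126 intensity units. The highest value belonged to WT LCA replicate 3, on which 18.3% of genes exceeded it, against 30.9% to 50.6% on the other 11 arrays. The median correlation of that array with the others was 0.630, and that of WT RCA replicate 3 was 0.728, against 0.752 to 0.840 elsewhere. Endothelial markers were present, with 9 of 10 above the receptor level on every array in 3 groups and 8 of 10 in WT LCA. Smooth muscle markers exceeded it on all arrays of a group for 2 of 10 genes in WT RCA, 0 in WT LCA, 3 in the right and 6 in the left KO artery. Most of these markers of the arterial media were thus not above background on every array in WT. The WT LCA count includes replicate 3 with its high receptor level. Acta2, Mylk and Myocd exceeded it on 2 of the 3 WT LCA arrays, and the rest on 1 or 0.

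Sardh had the clearest separation between ligated and untouched wild type arteries. Its intensity was 108, 109 and 122 in WT RCA and 292, 269 and 196 in WT LCA. In KO it was 112, 101 and 114 in RCA and 111, 135 and 117 in LCA. All WT LCA arrays lay above the other 9 arrays, which overlapped between groups. The log2 difference between LCA and RCA was 1.15 ± 0.14 (SE) in WT and 0.15 ± 0.14 in KO, which put Sardh at rank 123 of the 15395 genes by size in WT. Without WT LCA replicate 3 the WT difference was 1.32.

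Anapc4 followed the same course over the groups. It measured 183, 223 and 196 in WT RCA and 516, 530.2 and 343 in WT LCA, against 283, 177 and 214 in the right and 235, 279 and 202 in the left artery of KO. The WT LCA arrays were again above every other array, and the order of WT RCA, KO RCA and KO LCA could not be told from their spread. The difference was 1.18 ± 0.21 in WT, at rank 109 by size, and 0.10 ± 0.21 in KO. Leaving out single KO RCA arrays moved the KO value between -0.05 and 0.28.

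Gstt1 was nearer to background. It measured 111, 125 and 95.6 in WT RCA and 173, 152 and 209 in WT LCA. The KO arteries were at 103, 109 and 94.9 on the right and 101, 119 and 106 on the left. The WT LCA arrays were above all others and all exceeded their receptor level, while 2 of 3 arrays did so in WT RCA, and 1 right and 3 left arteries of KO. The difference was 0.68 ± 0.13 in WT and 0.09 ± 0.13 in KO. The highest Gstt1 value came from WT LCA replicate 3, the array with the highest receptor level, and the lowest WT RCA value from replicate 3 of that group. Without both of these arrays the WT difference was 0.46.

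Mbd2 was measured by 2 probes that did not move together. The brighter probe, which the platform annotates to a cDNA clone, gave 111, 106 and 89.2 in WT RCA and 137, 193 and 243 in WT LCA. In the KO arteries it gave 99.9, 111 and 109 (RCA) and 123, 122 and 118 (LCA). WT LCA lay above all other arrays, although its lowest value was close to the highest KO LCA value, and the difference was 0.87 ± 0.17 in WT and 0.18 ± 0.17 in KO. In KO, LCA also lay above RCA without overlap, by less than in WT. Such a lack of overlap in KO, in either direction, was found for 19.9% of all genes. In WT the extremes were again WT LCA replicate 3 and WT RCA replicate 3, and the WT difference without both was 0.58. The second probe, annotated to the RefSeq mRNA, measured 106, 100.2 and 97.7 in WT RCA and 90.5, 87.0 and 84.1 in WT LCA. On this probe no LCA array of either genotype exceeded the receptor level. Its KO values were 104, 168 and 95.5 in RCA and 80.3, 83.3 and 94.9 in LCA. The log2 difference on this probe was -0.22 ± 0.17 in WT and -0.47 ± 0.17 in KO, so the larger was in KO. LCA lay below RCA without overlap in both genotypes, as 11.1% of all genes did not overlap in WT and 19.9% in KO. Taken against the receptor level, the KO RCA mean was at least 1.20-fold higher, but the size of this fold rested on replicate 2 at 168. KO RCA replicate 3 did not exceed its receptor level on this probe. The higher Mbd2 value after ligation therefore rests on the clone probe.

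**Figure D1:**
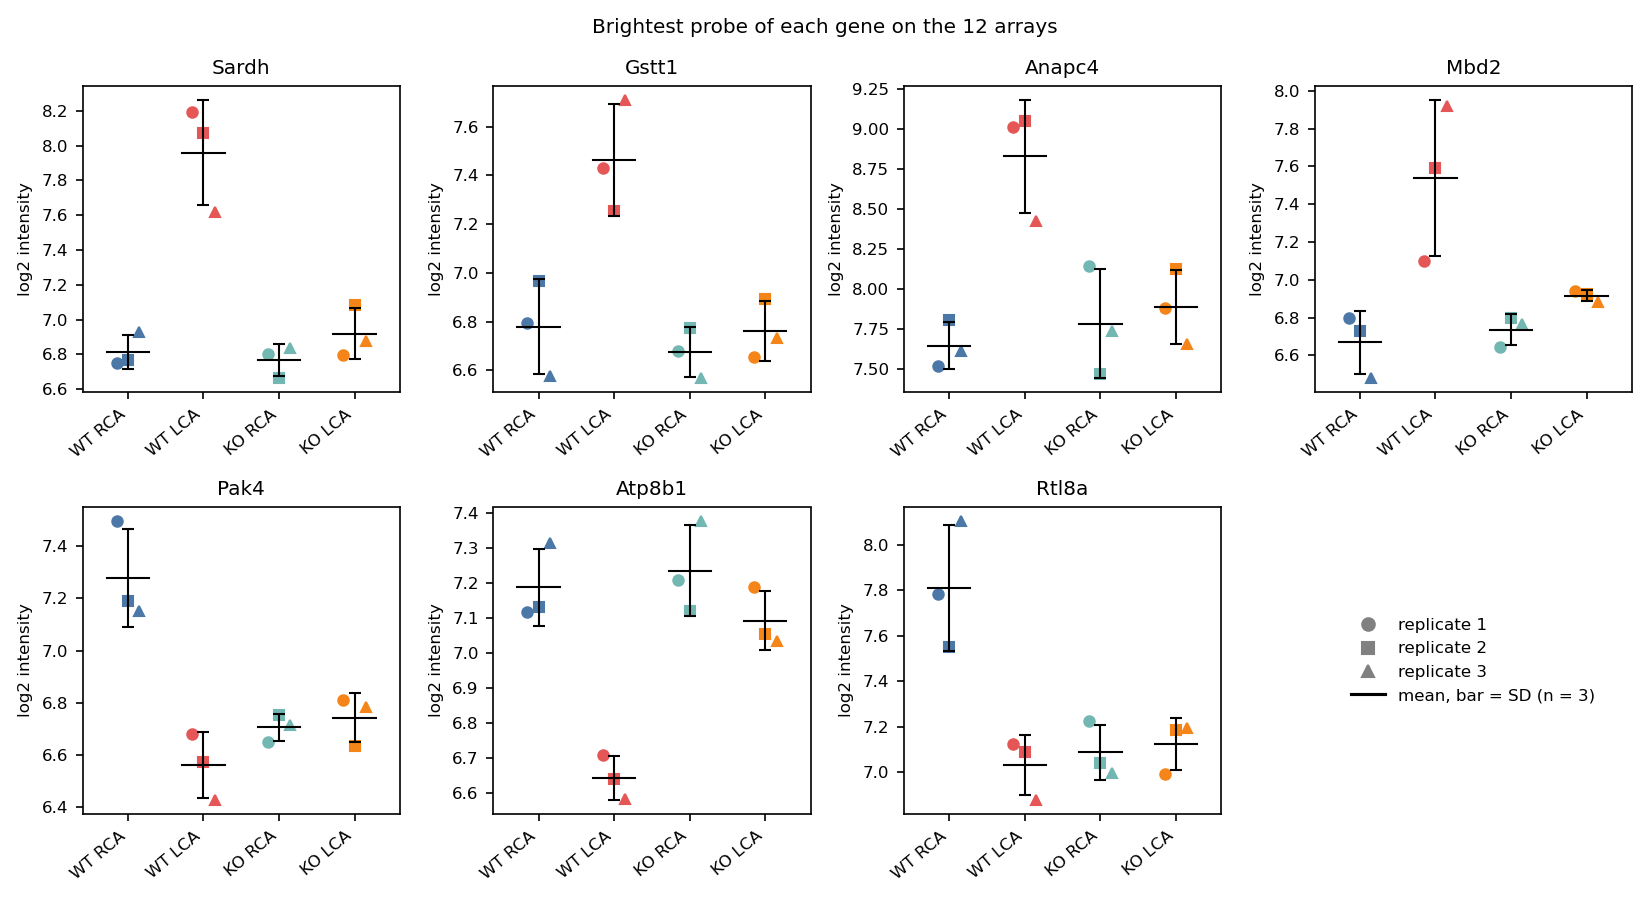
Log2 intensity (vertical axis) of the brightest probe of each of the 7 genes on the 12 arrays, by group (horizontal axis); symbols mark the replicate number, and the line and bar give the mean and SD of 3 arrays. WT LCA stands above the other 9 arrays for Sardh, Gstt1, Anapc4 and Mbd2 and below them for Atp8b1, while WT RCA stands above them for Pak4 and Rtl8a.

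Among the genes with lower values after ligation, Pak4 differed from those above in which wild type artery stood apart. Pak4 measured 180.4, 146 and 142 in WT RCA and 102, 95.2 and 86.1 in WT LCA. In the knockout it measured 100.3, 108 and 105 for RCA and 112, 99.5 and 110.1 for LCA. The WT RCA arrays lay above the other 9, and both KO arteries overlapped WT LCA. The log2 difference was -0.72 ± 0.10 in WT and 0.04 ± 0.10 in KO. Outside WT RCA the probe was near background, above the receptor level on 1 of 3 arrays in WT LCA and 2 of 3 in each KO group, so the fold in WT is compressed.

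Rtl8a had the same shape on its brighter probe. The values were 220.1, 188 and 275 in WT RCA and 139.7, 136 and 118 in WT LCA. For the knockout they were 149.7, 132 and 128 on the right and 127, 145 and 146 on the left. WT RCA again lay above every other array, and the remaining groups overlapped. The difference was -0.78 ± 0.14 in WT and 0.03 ± 0.14 in KO, and -0.63 in WT without WT RCA replicate 3. The second Rtl8a probe gave 126, 139 and 125 in WT RCA and 110.4, 101 and 103 in WT LCA, a smaller difference of -0.31 ± 0.25. Its WT RCA arrays lay above its WT LCA arrays without overlap, and the SE shares the spread of all 4 groups. In KO this probe gave 119, 118 and 106 in RCA and 112, 90.1 and 219 in LCA, where replicate 3 stood far from the other LCA arrays. Close copies of Rtl8a lie on the same chromosome, and whether its probes also bind their RNA cannot be told from these files. The copies had probes of their own. Rtl8b measured 95.4, 112 and 93.8 in WT RCA and 98.5, 102 and 104 in WT LCA, and Rtl8c 99.2, 103 and 181 against 101, 109.8 and 102. Rtl8b stayed near background, while Rtl8c was at 181 on WT RCA replicate 3, the array on which Rtl8a was highest too.

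Atp8b1 was lower in the ligated wild type artery than on all other arrays. Its brightest probe measured 139, 140.1 and 159 in WT RCA and 105, 99.7 and 95.8 in WT LCA. The knockout gave 148, 139 and 166 for RCA and 146, 133 and 131 for LCA. All WT LCA arrays lay below the other 9, and 1 of the 3 exceeded its receptor level. The difference was -0.54 ± 0.08 in WT and -0.14 ± 0.08 in KO, and -0.48 in WT without WT RCA replicate 3. Neither of its 2 further probes exceeded the receptor level on any WT LCA array. They measured 106 ± 11.9 (SD, n = 3) and 103 ± 6.17 in WT RCA, and 95.7 ± 3.88 and 96.3 ± 3.46 in WT LCA, so neither supports a fold of its own. In KO their LCA minus RCA differences were 0.06 ± 0.09 and 0.04 ± 0.11, opposite in sign to the brightest probe.

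**Figure D2:**
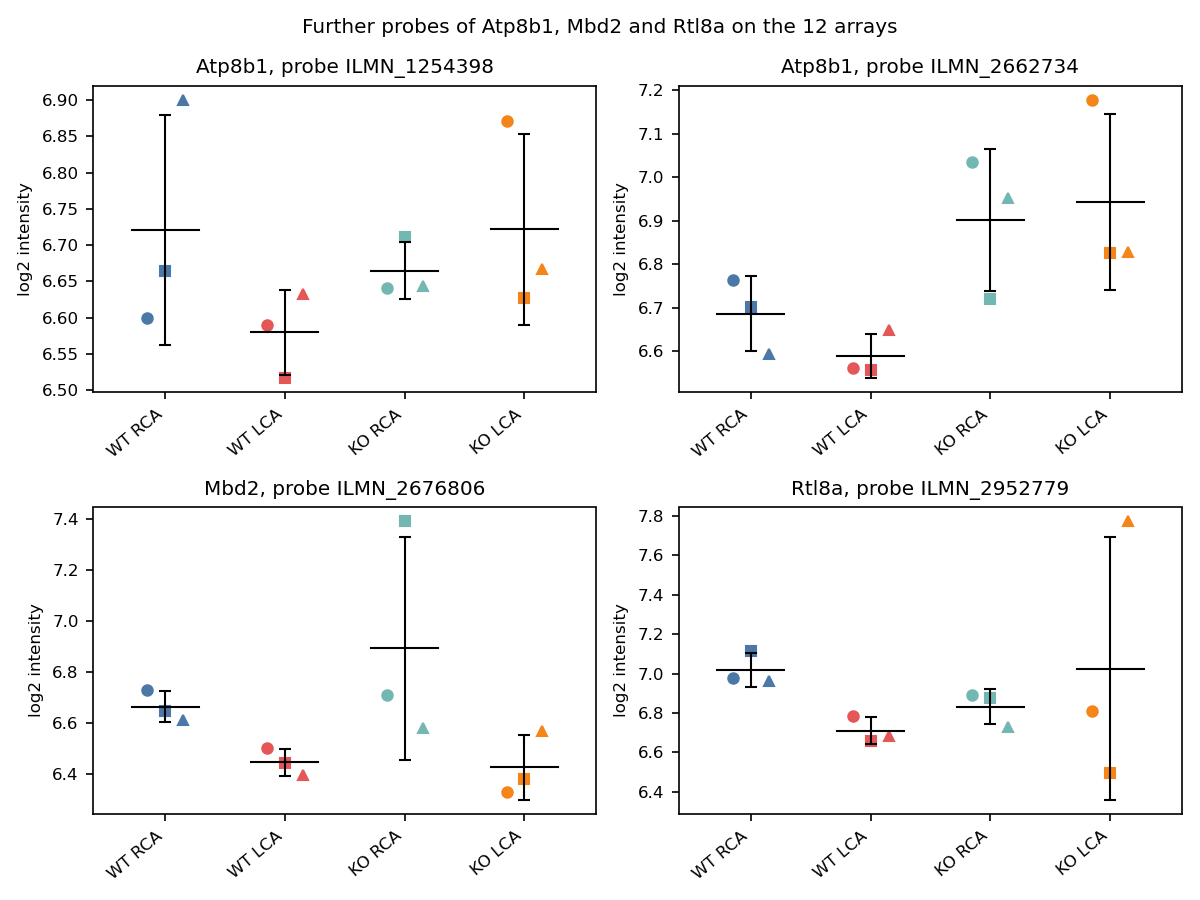
Log2 intensity (vertical axis) of the 4 further probes of Atp8b1, Mbd2 and Rtl8a by group (horizontal axis), drawn with the group mean as a line, its SD as a bar (n = 3) and symbols for the replicate number (circle 1, square 2, triangle 3). The second Mbd2 probe was lower in LCA in both genotypes, opposite to the clone probe, and the second Rtl8a probe has 1 KO LCA array at 219 intensity units.

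The genes thus fell into groups by the artery that stood apart. The choice of members did not name that artery, but it favoured genes with a wild type artery apart from the other arrays. WT LCA stood apart for 5 of the 7 genes and WT RCA for 2. The same separation of a group from the other 9 arrays was found for 6.31% of all tested genes. Because the members were chosen from these values, this share is background and no measure of them. By group it was 0.474% for WT LCA above, 1.25% for WT LCA below and 0.669% for WT RCA above. For Pak4 and Rtl8a the KO minus WT difference was -0.57 ± 0.10 and -0.72 ± 0.13 in RCA, and 0.18 ± 0.10 and 0.09 ± 0.13 in LCA. For Sardh, Anapc4, Gstt1 and Mbd2 it was -1.04 ± 0.14, -0.94 ± 0.21, -0.70 ± 0.13 and -0.62 ± 0.17 in LCA, and lay between -0.11 and 0.14 in RCA. For Atp8b1 it was 0.45 ± 0.08 in LCA and 0.05 ± 0.08 in RCA. These values use the arrays that chose the genes and share controls with the ligation differences, so they were not tested.

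Over all tested genes the selected pattern was uncommon but not rare. It was counted as an LCA minus RCA difference of at least 0.5 log2 units in WT with no overlap between the 3 and 3 arrays, and under 0.25 in KO. It was met by 223 genes, or 1.45%, of which 68 were higher and 155 lower in WT LCA, and all 7 genes met it by their choice. With the genotypes exchanged it was met by 107 genes, or 0.695%. Of the 68 higher genes, WT LCA stood above all other arrays for 21, and of the 155 lower genes WT RCA stood above for 33 and WT LCA below for 49. Replicates scattered more in WT, with a median SD per gene of 0.127 log2 units for LCA and 0.095 for RCA, than in KO, with 0.083 for LCA and 0.084 for RCA, and the part of this spread in the counts was not tested. The WT count ranged from 207 to 590 when single arrays were left out, being 590 without WT LCA replicate 1, 452 without WT LCA replicate 2 and 406 without WT RCA replicate 2. It was 390 without WT RCA replicate 3 and 367 without WT LCA replicate 3. Of the 7 genes, 6 met the pattern without WT RCA replicate 3 and 6 without KO RCA replicate 1, and all 7 with any other single array left out.

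The name of responders in wild type alone goes beyond what the tests over all genes show. In limma with Benjamini-Hochberg adjustment, none of the 15395 genes passed at 0.05 in WT ligation (0%), in KO ligation (0%) or in the difference between them (0%), and so none of the 7 did. At an unadjusted p under 0.05 there were 1062 genes in WT (6.90%), 1057 in KO (6.87%) and 542 for the difference (3.52%). The arrays of LCA and RCA did not overlap for 11.1% of genes in WT and 19.9% in KO. The residual SD of the 7 genes lay between percentiles 37.0 and 74.6 of all tested genes. Their mean level over the 12 arrays lay between percentiles 70.9 and 95.4.

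**Figure D3:**
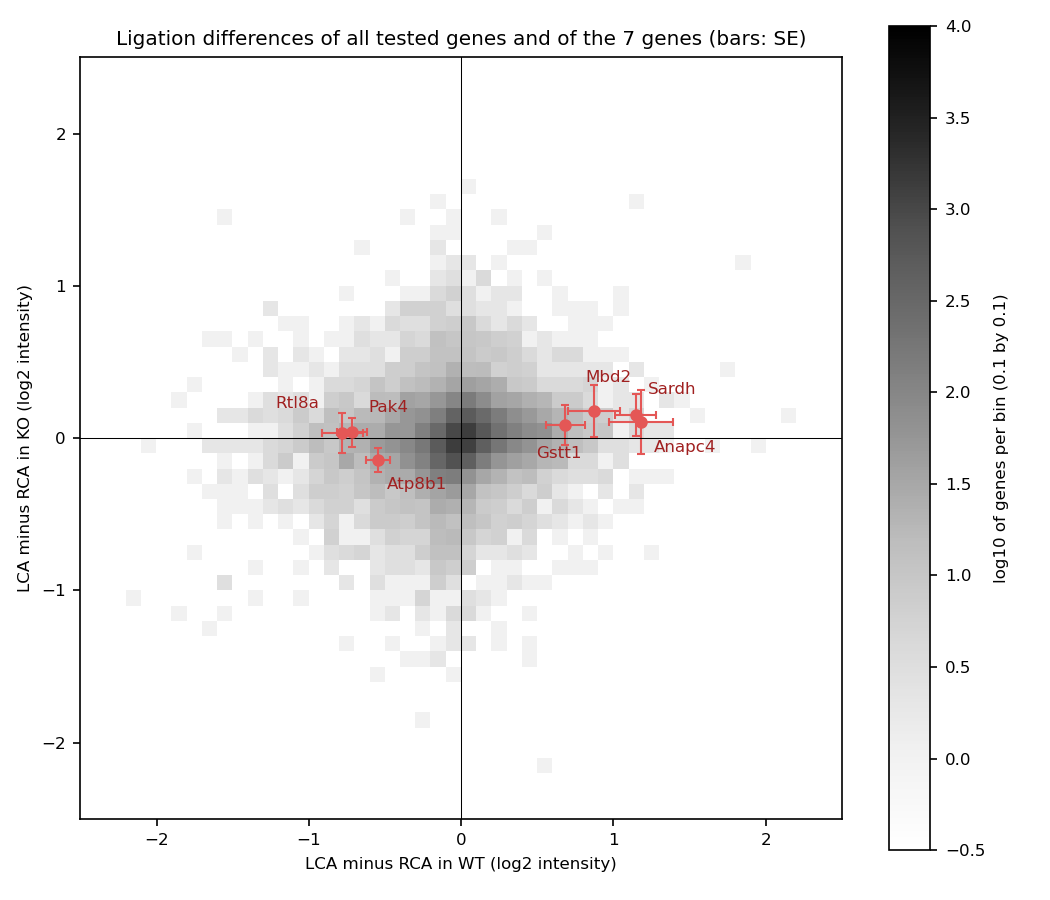
LCA minus RCA difference in log2 intensity in WT (horizontal axis) and KO (vertical axis) for all 15395 tested genes as shaded bins, on a log10 scale of genes per bin, and for the 7 genes as red points with SE bars. The 7 genes lie along the horizontal axis, between -0.78 and 1.18 in WT and between -0.14 and 0.18 in KO.

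The comparison of genotypes averaged over both arteries is orthogonal to the ligation differences in the fit but was made from the same arrays that chose the genes, and none of the 7 passed it. KO minus WT, over 6 arrays of each genotype, was below 0 for 6 genes and above 0 for Atp8b1. The Sardh values ran from 108 to 292 with a median of 159 in WT and from 101 to 135 with a median of 113 in KO. Its difference was -0.54 ± 0.10 log2 units, with adjusted p = 0.105 in limma. Gstt1 differed by -0.40 ± 0.09 (adjusted p = 0.210, limma) and Atp8b1 by 0.25 ± 0.06 (adjusted p = 0.218, limma). Rtl8a, Anapc4, Mbd2 and Pak4 differed by -0.32 ± 0.10, -0.40 ± 0.15, -0.28 ± 0.12 and -0.20 ± 0.07, with adjusted p from 0.415 to 0.727 in limma. Over all genes 17 passed (0.110%). All 7 members had an unadjusted p under 0.05 in limma, against 6.82% of all genes. Of the 1050 genes at that p, 770 were higher and 280 lower in KO. The WT and KO arrays overlapped for each of the 7, while they did not overlap for 1.01% of all genes. In each gene the average includes the WT artery that stood apart, and with it part of the difference that chose the gene, so nothing is read from these members' counts. Sardh passed without WT LCA replicate 3, with a difference of -0.63 and adjusted p = 0.0239, and with array weights, at -0.61 and adjusted p = 0.0242. Over all alternatives its adjusted p ran from 0.0239 to 0.365. With both arteries of a number averaged first, as fits arteries of 1 mouse, it was 0.244. The KO minus WT difference of Sardh was -1.04 ± 0.14 in LCA and -0.05 ± 0.14 in RCA. Its p-values therefore rest on the WT LCA arrays that chose it, and no genotype effect is read from them.

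The relatives of each gene in its pathway or family showed small differences with ligation in most cases. Of 108 tested relatives in 7 lists, 0 passed in limma in WT ligation, KO ligation, their difference or the genotype average, the last of which had 0.110% of all genes. In WT, 3 were higher and 4 lower at an unadjusted p under 0.05, against 2.46% higher and 4.44% lower over all genes. The median difference of the relatives was 0.02 log2 units in WT and -0.005 in KO, against -0.001 and -0.006 for all tested genes. Of the relatives, 1 met the pattern counted above, the NuRD helicase gene Chd4.

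For Sardh, the 10 tested genes of sarcosine, choline and glycine metabolism had a median of 0.04 in WT, with 6 above 0. They ran from the glycine cleavage gene Amt (-0.20 ± 0.17) to the betaine aldehyde dehydrogenase gene Aldh7a1 (0.32 ± 0.25). Each rested on 1 array, Amt on WT RCA replicate 3 at 154, against 93.3 and 100.2 on the others, and Aldh7a1 on WT LCA replicate 3 at 199.9, against 103 and 92.3. For Gstt1, 24 glutathione genes had a median of 0.02, from Gstm4 (-0.29 ± 0.15) to Gstk1 (0.28 ± 0.20), both with overlapping arteries. Gstm6 measured 108, 103 and 108 in WT RCA and 116, 128 and 128 in WT LCA without overlap, a difference of 0.22 ± 0.08 with adjusted p = 0.683 in limma. The other theta class genes Gstt2, Gstt3 and Gstt4 differed by 0.02 ± 0.13, -0.04 ± 0.27 and -0.001 ± 0.075. Gstt4 was above the receptor level on no array.

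For Anapc4, 18 other genes of the complex and its partners had a median of 0.04 in WT, with 11 above 0. The subunit gene Cdc27 was highest at 0.61 ± 0.44, which rested on WT LCA replicate 1 at 391, the other LCA arrays being at 109 and 91.4. Anapc13 was lowest at -0.46 ± 0.29. Cdc20, the mitotic activator of the complex, measured 107, 138 and 165 in WT RCA and 106, 101 and 103 in WT LCA, a difference of -0.38 ± 0.14.

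For Mbd2, 14 genes of methyl-CpG binding and NuRD had a median of 0.04 in WT and held values in both directions. Chd4 measured 338, 237 and 185 in WT RCA and 149, 143 and 107 in WT LCA, a difference of -0.90 ± 0.20 with adjusted p = 0.507 in limma. In KO it measured 142, 161 and 179 in RCA and 161, 149 and 151 in LCA, a difference of -0.06 ± 0.20. The histone-binding NuRD gene Rbbp7 was lower by -0.30 ± 0.12 in WT, and the methyl-CpG reader gene Zbtb33 was highest at 0.72 ± 0.36, through WT LCA replicate 3 at 315 against 91.2 and 114.

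For Atp8b1, 12 flippase genes had a median of -0.07, with 4 above 0. Atp9b was lowest at -0.74 ± 0.28, with 185, 246 and 94.5 in WT RCA and 110.0, 95.2 and 87.0 in WT LCA, which overlapped. Atp8b2, the highest at 0.06 ± 0.08, was above the receptor level on no WT array. For Rtl8a, 11 Gag-like and related genes had a median of 0.01, from Rtl1 (-0.36 ± 0.26) to the paraneoplastic antigen gene Pnma1 (0.29 ± 0.12). Rtl1 rested on WT RCA replicate 3 at 214, the other WT arrays lying between 91.1 and 97.0.

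**Figure D4:**
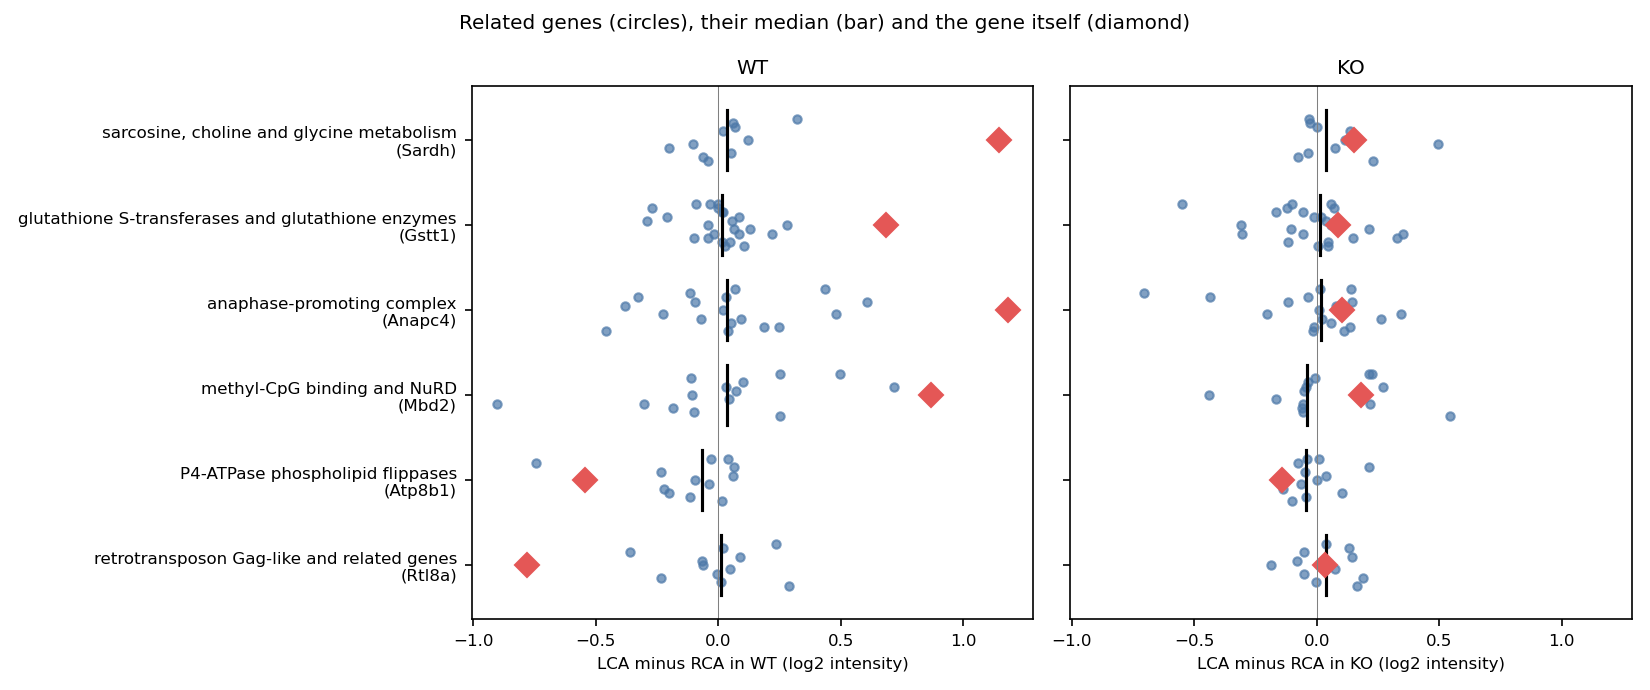
LCA minus RCA difference in log2 intensity (horizontal axes) in WT (left) and KO (right) for the tested relatives of 6 of the genes (circles), their median (bar) and the gene itself (diamond), with the 6 lists on the vertical axis. In WT the diamonds lie at the edge of or outside their lists, apart from Atp8b1, which Atp9b exceeds, and in KO the diamonds lie within the range of their circles except for Atp8b1 at -0.14, level with its lowest relative.

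The genes whose log2 values were most like those of each member over the 12 arrays were found by Pearson correlation, which is a description over arrays that share 4 groups. Sardh and Anapc4 were each other's nearest gene, with r = 0.942. Hspa2, a heat shock protein gene, was next for both (r = 0.901 and 0.896), with a mean of 241 ± 61.2 (SD, n = 3) in WT LCA against 158 ± 17.1 in WT RCA, and of 162 ± 5.45 and 157 ± 11.5 in the right and left KO arteries. The third were Sdcbp, encoding the adaptor syntenin, for Sardh (r = 0.897) and Osbpl5, an oxysterol-binding protein gene, for Anapc4 (r = 0.859). Gstt1 was most like the calpain gene Capn1 (r = 0.917), Cped1 (r = 0.908) and Fam185a (r = 0.905). Mbd2 was most like Gfpt1, the entry enzyme gene of the hexosamine pathway (r = 0.975), the myosin gene Myo5b (r = 0.951) and again Fam185a. Gfpt1 had means of 104 ± 7.03 in WT RCA and 162 ± 46.9 in WT LCA, and Fam185a of 92.8 ± 0.772 and 110.4 ± 8.84, close to background.

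Pak4 was most like Chd4 (r = 0.946), the antitrypsin gene Serpina1b (r = 0.930) and the SUMO ligase gene Pias1 (r = 0.902). Serpina1b had a mean of 427 ± 241 in WT RCA, 125 ± 20.6 in WT LCA, with 172 ± 24.6 and 130.3 ± 4.94 for the right and left arteries of KO. Rtl8a was most like Ythdf3, a reader of methylated adenosine in RNA (r = 0.919), the calcium channel gene Itpr2 (r = 0.918) and the ubiquitin ligase gene Peli1 (r = 0.916). Ythdf3 had a mean of 232 ± 96.5 in WT RCA and 99.1 ± 7.45, 101 ± 10.3 and 102 ± 7.54 in WT LCA, KO RCA and KO LCA. Atp8b1 was most like Cyb5r3 (r = 0.874), Ppm1f (r = 0.869) and the guanine nucleotide exchange factor gene Trio (r = 0.868). Trio had a mean of 350 ± 106 in WT RCA, 177 ± 2.96 in WT LCA, and 292 ± 30.5 and 291 ± 41.1 in the KO arteries. Between members, Pak4 and Rtl8a had r = 0.834, and Gstt1 and Atp8b1 r = -0.942.

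Some cell type markers moved with the wild type arteries that set these genes apart. The summed intensity of the 10 endothelial markers ran from 4067 to 5063 in WT RCA and from 3452 to 4040 in WT LCA without overlap, while in KO it ran from 3791 to 4876 for RCA and from 3156 to 5818 for LCA. Its members went both ways in WT: the mean of Egfl7 was 1158 in RCA and 555 in LCA, and similarly 1048 and 444 in KO, while Emcn was at 206 and 298, Tie1 at 169.8 and 249 and Pecam1 at 1084 and 1086 in WT. The summed intensity of the 10 liver markers was highest in WT RCA, from 1251 to 1820, against 964 to 1043 in WT LCA, and in KO it was 1045 to 1216 for RCA and 947 to 988 for LCA. The liver list was carried by Serpina1a, Serpina1b and Serpina1d, close copies whose probes may share targets, while Alb, Apob, Fgb and Cps1 were above the receptor level on no array. Schwann cell and nerve markers summed to 681 to 738 in WT RCA and 656 to 659 in WT LCA, and in KO, in the other direction, to 659 to 669 for RCA and 670.1 to 674 for LCA. Of these, 1 of 7 with a probe was above background on all WT RCA arrays and 0 on WT LCA arrays. The sums of the other 9 lists overlapped between WT LCA and WT RCA. In KO, among these 9, the adipocyte sum alone did not overlap, at 857 to 1059 for RCA and 1203 to 1536 for LCA. The part of these markers in the 7 genes was not tested, and fewer cells of a type cannot be told apart from less RNA per cell in bulk samples.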

How the data were processed

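The authors deposited 1 linear intensity per probe and array, measured on biotinylated cRNA with one-colour Illumina arrays, per the labels' protocols. All 12 columns share nearly the same sorted values, as quantile normalization gives; the sources used here give neither the scanner software, the background step, the normalization tool nor the slide, so no slide block was tested. Precision is limited by having 3 arrays a group.

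Probes were named by the platform annotation: 34885 of 45281 had 1 gene symbol, 18 several and 10378 none. Probes at or above their array's median on at least 3 arrays were kept (25796), and the brightest stood for its gene. Log2 intensities, with a floor of 1, entered 1 limma fit (limma 3.58.1, R 4.3.3) on 4 group means, with eBayes, two-sided tests and Benjamini-Hochberg adjustment over 15395 genes. Differences of further probes come from the same fit over all probes with 1 symbol. The genotype contrast averages both arteries and is orthogonal to the ligation contrasts in the fit, though it shares their residual spread. For the 7 genes it includes the WT artery that stood apart, so it is no independent test of them. Where a probe exceeded the receptor level on no array of a group, a fold was taken against that level and called at least. All 7 entrez identifiers matched RefSeq. The script was checked on simulated data. Members and lists were chosen with earlier results of these data known. Named genes were all member probes, the 3 most correlated genes, passing over predicted genes and clones, and the highest and lowest relative of each list. Other named relatives were chosen after their values were seen. Alternatives covered the dim-probe filter, probe rule, normalization, pseudocount, weights, moderation, blocks, samples in the fit and single arrays. The list of relatives of Pak4 is not reported singly here.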

Additional observations from a re-analysis of the deposited data

How the results depend on the processing

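No gene was called in KO ligation or in the difference between genotypes under the filters, probe rule, normalizations, pseudocount, weights, moderation and blocks tried. WT ligation gave 3 genes with the mean of the kept probes, 1 with array weights and 11 without both WT arrays numbered 3, an alternative chosen after seeing the data. Leaving out 1 array at a time gave 0 to 11 genes in WT ligation, 0 to 6 in KO ligation, 0 to 3 for the difference and 1 to 32 for the genotype average. The genotype average, 17 genes, gave 33 with the mean of the kept probes, 31 with array weights, 4 without both WT arrays numbered 3, and 0 with eBayes trend and robust (926 at an unadjusted p under 0.05) and with both sides of a number averaged first (920). Among single arrays left out, the genotype average had the fewest calls without WT RCA replicate 3 and the most without WT LCA replicate 3. The cause of these shifts was not tested. The pattern of a large difference in WT and a small one in KO was met by 207 to 590 genes with single arrays left out and by 515 without both WT arrays numbered 3, where 5 of the 7 genes still met it. The reverse pattern was met by 95 to 210 genes with single arrays left out. With fewer arrays in a group, lack of overlap is met more easily.

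The WT differences of the 7 genes kept their sign in all 168 values recomputed, and the genotype averages in all 161. In KO, 5 of 168 values changed sign. Shifts of at least the residual SD of the gene occurred in 7 of the 168 WT values and 2 of the 168 KO values. For the difference between the WT and KO ligation values they occurred in 5 of 161. With the mean of the kept probes the WT difference was 0.33 for Mbd2, -0.26 for Atp8b1 and -0.54 for Rtl8a. Same-numbered arrays of LCA and RCA had correlated deviations of 0.036 to 0.072 in WT and -0.016 to 0.040 in KO, and the labels do not say that a number is a mouse, so the numbers were not taken as pairs. In WT every array correlated best with its own number, as a hint from the data. This did not hold in KO, where RCA replicate 1 had 0.066 with LCA replicate 2 and -0.016 with LCA replicate 1. The fixed replicate block gave 0 genes in WT ligation, KO ligation and their difference, and the random replicate block gave 0 in these and 13 for the genotype average. Probes near the receptor level limit what can be measured, since their folds are compressed.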
